A study of Homo sapiens with 4 samples.

Results

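The mitochondrial ribosomal protein mRNAs are the transcripts of the nuclear genes named MRPL and MRPS, for large and small subunit, with a number. They were taken from the deposited PAR-CLIP table by this pattern in the gene symbol alone, without the use of any measured value. The pattern found 77 of the 26490 listed genes, 48 of them MRPL and 29 MRPS, and each was matched to a protein-coding transcript. The mitochondrial ribosome translates the few mRNAs encoded by mitochondrial DNA, whose products are core subunits of the respiratory chain and ATP synthase. Its proteins are made in the cytosol from nuclear mRNAs and imported, while its ribosomal RNAs are transcribed inside the organelle. DHX36 is a DEAH-box helicase that binds and unwinds G-quadruplexes, 4-stranded structures formed by runs of G in DNA or RNA.

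The data come from PAR-CLIP in HEK293, a human embryonic kidney cell line, in which stably integrated transgenes gave FLAG/HA-tagged DHX36 isoform 2 (FH-DHX36) or DHX36 isoform 1 carrying the E335A mutation in the helicase domain (FH-DHX36-E335A) after 15 h of 500 ng per ml tetracycline. In both lines, 4-thiouridine was built into RNA, cells were irradiated at 365 nm, and the tagged protein was precipitated with an anti-FLAG antibody. There were 2 biological replicates per line, but the table holds 1 merged value per gene and line, so that no spread between replicates can be given and no difference between the lines was tested. Isoform and mutation differ together and cannot be told apart, and neither line lacked the endogenous DHX36 by its labels. The table lists 8752127 crosslinked reads in 60208 clusters for FH-DHX36-E335A and 2160413 reads in 16742 clusters for FH-DHX36. A cluster is a group of overlapping reads with the T-to-C conversions left by crosslinked 4-thiouridine.

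Most mitochondrial ribosomal protein mRNAs carried a cluster. FH-DHX36-E335A bound 71 of 77, which is 92.2% (95% Wilson interval from 84.0% to 96.4%), against 34.5% of all genes and 48.1% of genes with a matched coding transcript. In the FH-DHX36 PAR-CLIP 48 of 77 were bound, or 62.3% (51.2% to 72.3%), against 22.4% of all genes and 31.3% of those with a coding transcript. Of cytosolic ribosomal protein genes 84.4% and 76.6% were bound by FH-DHX36-E335A and FH-DHX36, and of respiratory chain and ATP synthase genes 80.2% and 51.2%. High bound shares were thus not particular to the members. The intervals cover counting error only. The backgrounds include genes that HEK293 cells do not express, and RNA abundance can be recovered from this table only for genes with a cluster. Other expression data were not used here, so that the shares were not compared at equal expression. By gene name, FH-DHX36-E335A bound 45 of 48 MRPL and 26 of 29 MRPS mRNAs, and FH-DHX36 bound 30 of 48 and 18 of 29. All 48 mRNAs bound by FH-DHX36 were among those bound by FH-DHX36-E335A, a further 23 had clusters in the latter alone, and 6 had none. Of the 71 mRNAs bound by FH-DHX36-E335A, 67.6% were thus also bound by FH-DHX36, compared with 62.1% of all genes.

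By origin of the protein, 43 of the 77 belong to families with a bacterial homolog and 27 are specific to mitochondria. The remaining genes are 3 members of the S18 family and 4 that were put in neither list. FH-DHX36-E335A clusters were present on 41 of 43 mRNAs with a bacterial homolog and on 25 of 27 mitochondria-specific ones. For FH-DHX36 the counts were 27 of 43 and 17 of 27, which are shares of 62.8% and 63.0%.

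Together the members held 58371 crosslinked reads in 421 clusters with FH-DHX36-E335A, or 0.667% of all its reads, and 9587 reads in 105 clusters with FH-DHX36, or 0.444%. A bound member had a median of 549 FH-DHX36-E335A reads, between 15 for MRPL12 and 6003 for MRPL51, and the median over all bound genes was 326. With FH-DHX36 the median was 126.5 reads, between 18 for MRPL53 and 871 for MRPL24, against 121 over all bound genes. The median number of clusters was 5 and 2, the same as over all bound genes. Just 1 cluster was listed for 4 of the 71 mRNAs with FH-DHX36-E335A (5.63%, against 17.1% of all bound genes) and for 19 of the 48 with FH-DHX36 (39.6%, near the 43.3% of all bound genes). The reads were unevenly spread, since the 5 mRNAs with the most reads held 31.8% of the members' FH-DHX36-E335A reads and 36.9% of their FH-DHX36 reads.

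**Figure D1:**
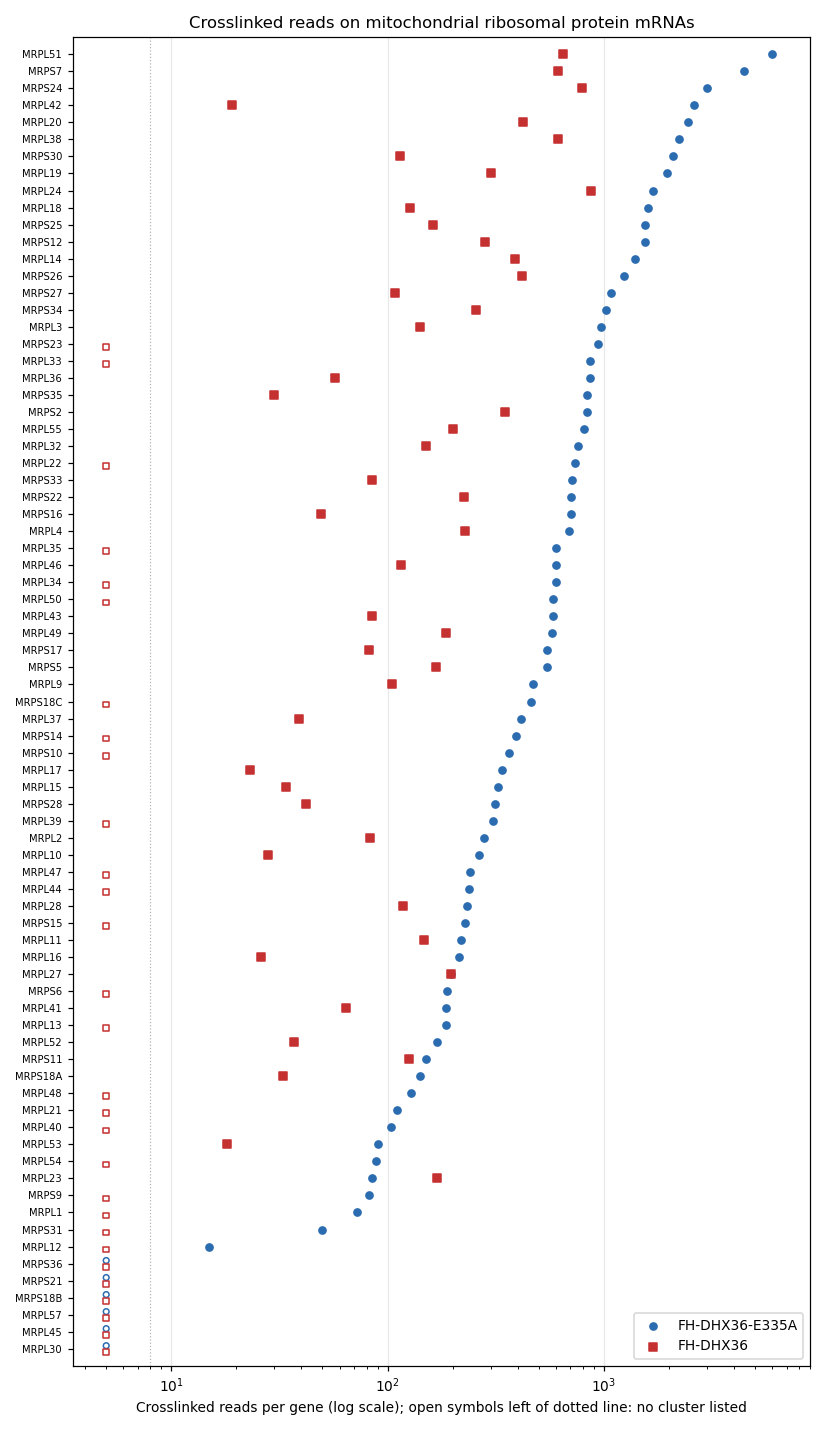
Crosslinked reads per gene on a logarithmic axis for the 77 mitochondrial ribosomal protein mRNAs, ordered by FH-DHX36-E335A reads (blue circles), with FH-DHX36 reads as red squares and open symbols left of the dotted line where no cluster was listed. MRPL51 has the most FH-DHX36-E335A reads (6003) and MRPL24 the most FH-DHX36 reads (871), 6 mRNAs at the bottom have no cluster in either, and MRPL23 is the 1 mRNA with more reads in FH-DHX36 (170) than in FH-DHX36-E335A (85). The axis shows raw reads, and the FH-DHX36-E335A table holds 4.05 times as many.

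The mRNA with the most FH-DHX36-E335A reads was MRPL51, which codes for a mitochondria-specific protein of the large subunit. It had 6003 reads in 6 clusters with FH-DHX36-E335A and 646 reads in 6 clusters with FH-DHX36. The CDS held most of them, with 3374 and 448 reads. MRPS7, a homolog of the bacterial protein S7 of the small subunit head, followed with 4472 reads in 9 clusters and 616 reads in 4 clusters. Its binding lay mainly in the 3'UTR, where 2 clusters held 4051 FH-DHX36-E335A reads and 2 clusters held 454 FH-DHX36 reads. MRPS24, a small subunit protein with a bacterial homolog, had 3016 and 792 reads, of which 2695 and 668 were in clusters of an annotation other than 5'UTR, CDS, 3'UTR or intron. A same-strand read-through gene, URGCP-MRPS24, overlaps it in the annotation, and how the authors assigned such reads was not tested.

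MRPL42 and MRPL20 completed the first 5 for FH-DHX36-E335A and differed from each other in the other PAR-CLIP. MRPL42, a mitochondria-specific protein of the large subunit, had 2622 reads in 17 clusters with FH-DHX36-E335A and 19 reads in 1 cluster with FH-DHX36. MRPL20, homolog of a bacterial protein that binds ribosomal RNA early in assembly of the large subunit, had 2450 and 424 reads. Its FH-DHX36-E335A reads lay in the CDS (2150 reads in 4 clusters), where FH-DHX36 had no cluster. The FH-DHX36 reads of MRPL20 were in 1 cluster of another annotation (372 reads) and 1 in the 3'UTR (52 reads).

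With FH-DHX36, MRPL24 had the most reads. It encodes a homolog of bacterial L24, a protein of the large subunit. It had 871 FH-DHX36 reads in 3 clusters, of which 724 lay in 1 CDS cluster, and 1695 FH-DHX36-E335A reads in 7 clusters, with 859 in the CDS. MRPL38, a mitochondria-specific protein of the large subunit, had all of its reads in the 3'UTR in both PAR-CLIPs, 2223 FH-DHX36-E335A reads in 2 clusters and 613 FH-DHX36 reads in 1 cluster. Its 3'UTR is 206 nucleotides long in the canonical transcript.

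G runs in these mRNAs are shown because G-quadruplexes are the known ligand of DHX36. The sense strand of each canonical mRNA was searched for 4 or more runs of at least 2 G with 1 to 7 bases between runs, and the sequences below are read from GRCh37, with the G runs in capitals. They are the only 3'UTR match of MRPL38, both 3'UTR matches of MRPS7, both CDS matches of MRPL51, 1 of 4 CDS matches of MRPL24, and the only 3'UTR match of MRPS24:
MRPL38 (3'UTR, chr17:73894754-73894768, minus strand): GGtGGtGGGGtGGGG
MRPS7 (3'UTR, chr17:73262273-73262291, plus strand): GGttGGGGcGGacctttGG
MRPS7 (3'UTR, chr17:73262387-73262402, plus strand): GGctGGaGGaaataGG
MRPL51 (CDS, chr12:6602260-6602281, minus strand): GGGGcaGGtaGGcgcctgtGGG
MRPL51 (CDS, chr12:6601575-6601600, minus strand): GGGGGcccatatGGcttcgaGGttGG
MRPL24 (CDS, chr1:156708144-156708160, minus strand): GGGtGGtcgtGGGaGGG
MRPS24 (3'UTR, chr7:43906235-43906255, minus strand): GGaaacgtGGGaaaGGaatGG
The table gives no cluster positions, so that no cluster can be placed on any of these sequences. They are a selection from the matches in the mRNAs named above, and CDS matches of MRPL20 and MRPS24 are among those not shown. The pattern is common, since it was found in 71 of the 77 member mRNAs (92.2%) and in 94.7% of the 17933 coding mRNAs.

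A stricter pattern with runs of at least 3 G was rarer in the members than in coding mRNAs as a whole. It was present in 6 of 77 members (7.79%) compared with 23.8% of coding mRNAs, and the members' mRNAs are shorter. The 6 were MRPL41, MRPL42, MRPL53, MRPS25, MRPS27 and MRPS33. Per kb of mRNA there were 0.0422 matches in members and 0.0982 in coding mRNAs, so that the pattern was also rarer per length. It was not rare in members alone. The pattern was present in 6.49% of cytosolic ribosomal protein mRNAs and in 9.23% of 65 respiratory chain and ATP synthase mRNAs with a coding transcript. None of the members held it in the 5'UTR, against 6.81% of coding mRNAs. In the coding sequence 2 of 77 held it, against 6.29%, and in the 3'UTR 4 of 77 held it (5.19%, against 14.3%). In the 5'UTR the pattern with runs of 2 G was present in 20.8% of members and 53.2% of coding mRNAs, beside a median 5'UTR length of 31 and 134 nucleotides. The matches in the 3'UTRs of 4 members are:
MRPL42 (chr12:93902050-93902068, plus strand): GGGGGtGGGGaGGGtGGGG
MRPS25 (chr3:15092267-15092288, minus strand): GGGGGtGGGaGGGGaaGGtGGG
MRPS27 (chr5:71515310-71515332, minus strand): GGGGaaaGGGaGGaGGGagaGGG
MRPS33 (chr7:140705928-140705950, minus strand): GGGGtGGGatGGGatgctGGGGG
MRPS25 and MRPS27, both mitochondria-specific proteins of the small subunit, had nearly all of their reads in the 3'UTR. For MRPS25 these were 1506 of 1558 FH-DHX36-E335A reads and all 163 FH-DHX36 reads. For MRPS27 they were 992 of 1084 and all 108. The same pattern stands in the 3'UTR of MRPS33, where FH-DHX36-E335A had 185 of its 711 reads and FH-DHX36 none of its 85. For MRPL42 the 3'UTR held 1001 of 2622 FH-DHX36-E335A reads and all 19 FH-DHX36 reads. MRPL41 and MRPL53, both large subunit proteins, have the pattern in the CDS. In MRPL41 the CDS held 43 of 186 FH-DHX36-E335A reads and 22 of 64 FH-DHX36 reads. The 90 and 18 reads of MRPL53 were all in the 3'UTR. By region name, some of the 6 mRNAs thus had most of their reads in the region of the match and others did not. The matches were placed on a later annotation than the authors' regions, so that a region of the same name may not cover the same bases. Another annotation than 5'UTR, CDS, 3'UTR or intron was given to 1524 FH-DHX36-E335A reads of MRPL42 and 404 of MRPS33. Whether any of these lie in the 3'UTR of the canonical transcript was not tested.

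Relative to RNA abundance, binding of these mRNAs was low. NXPM is the authors' normalized score, the share of a gene's crosslinked reads in its PAR-CLIP over the abundance of its RNA. The median NXPM of bound members was 0.756 in the FH-DHX36-E335A data and 0.487 in the FH-DHX36 data, while all bound genes had medians of 5.66 and 7.84. NXPM above the all-gene median was seen in 7 of 71 and 2 of 48 members. The members were abundant mRNAs, with a median recovered abundance of 58.2 against 5.89 for all genes bound by FH-DHX36-E335A, and 74.3 against 7.30 for those bound by FH-DHX36. They held 0.966% and 0.828% of the abundance summed over bound genes, somewhat more than their shares of reads. The comparison to the median of all genes also mixes short and long mRNAs, as abundance is per length and reads are not. The median length of mRNAs bound by FH-DHX36-E335A was 1218 nucleotides for members and 3600 for all genes with a coding transcript. For those bound by FH-DHX36 it was 1210.5 and 3629. Divided by transcript length in kb, the median NXPM was 0.570 and 0.520 for members, and 1.59 and 2.03 for all genes.

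Among genes of like abundance the members stood much closer to the rest. In the range between the members' quartiles of abundance, from 31.9 to 143, lay 35 members with a median NXPM of 0.847, and 1009 genes in all with a median of 1.08 for FH-DHX36-E335A. For FH-DHX36, in the range from 36.1 to 169, the medians were 0.531 for 24 members and 1.19 for 701 genes. Per kb of transcript, the medians in these ranges were 0.484 and 0.682 for FH-DHX36-E335A and 0.509 and 0.720 for FH-DHX36. The cytosolic ribosomal protein mRNAs, which were far more abundant (median 4338 among 65 genes bound by FH-DHX36-E335A), had median NXPM of 0.0158 and 0.0144. Genes of the nuclear-encoded respiratory chain and ATP synthase lay between, at 0.248 and 0.169, and 69 of 86 and 44 of 86 of them were bound. These 86 were taken by a pattern in the symbol. They include the pseudogene UQCRBP1, which had no cluster, and 65 had a matched coding transcript.

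**Figure D2:**
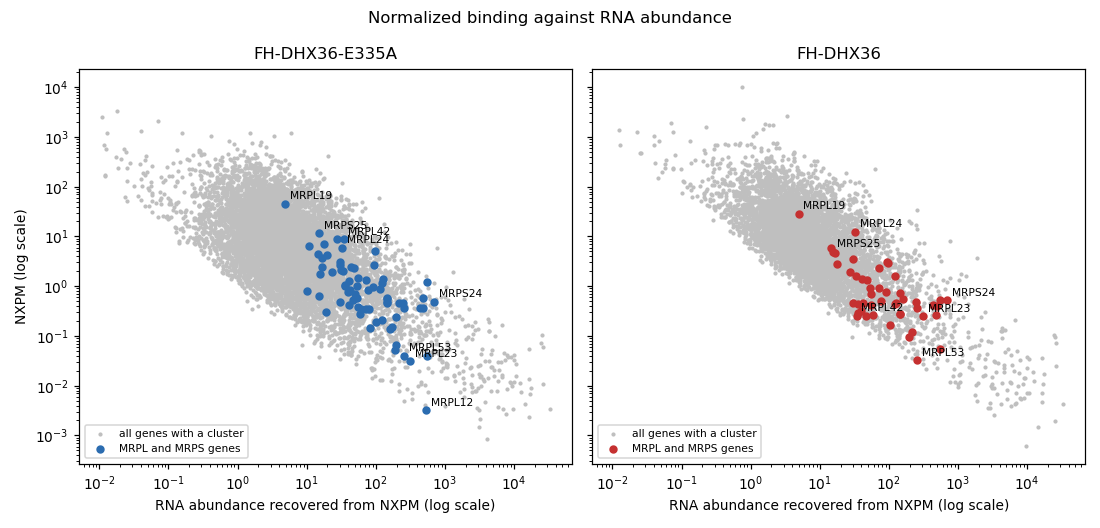
NXPM against RNA abundance recovered from NXPM, both on logarithmic axes, for all genes with a cluster and an abundance above 0.01 (gray) and for the bound mitochondrial ribosomal protein mRNAs (71 in blue for FH-DHX36-E335A, 48 in red for FH-DHX36). The members run down along the cloud from MRPL19 (NXPM 45.3 and 28.4) to MRPL12 (0.0032, FH-DHX36-E335A) and MRPL53 (0.0326, FH-DHX36). The axes share the abundance term, since NXPM is divided by it.

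Across the members, reads hardly followed abundance in the FH-DHX36-E335A PAR-CLIP. Spearman's rho of FH-DHX36-E335A reads with abundance was 0.047 over 71 members and 0.317 over all 9131 bound genes. For FH-DHX36 it was 0.244 over 48 members and 0.212 over 5930 genes. These are descriptions across genes measured in the same libraries. NXPM fell with abundance (rho of -0.679 over the 71 members and -0.578 over all genes for FH-DHX36-E335A), and the division by abundance itself gives a negative relation.

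The highest NXPM belonged to MRPL19, homolog of a bacterial protein at the subunit interface. It reached 45.3 for FH-DHX36-E335A and 28.4 for FH-DHX36, at a recovered abundance of 4.93, the lowest of the bound members. Its 1953 FH-DHX36-E335A reads lay in 25 clusters, the most of any member, 10 of them in the 3'UTR (1210 reads) and 12 in introns (536 reads). All 302 FH-DHX36 reads lay in 1 cluster of the 3'UTR, which is 6921 nucleotides long in the canonical transcript. MRPS25 had an NXPM of 11.6 and 4.92. MRPL42 was at 8.78 with FH-DHX36-E335A and at 0.258 with FH-DHX36. MRPS30, a protein of mitochondrial ribosomes that is found in the large subunit despite its name, had 8.70 and 1.93, and MRPS27 had 7.05 and 2.84. For FH-DHX36, MRPL24 was second at 12.3, and it was one of the members with the higher NXPM in FH-DHX36, as its value in FH-DHX36-E335A was 5.92. MRPL49, a mitochondria-specific large subunit protein, followed with 5.90 in FH-DHX36 and 4.48 in FH-DHX36-E335A. MRPS5, a small subunit protein with a bacterial homolog, had 4.63 and 3.73.

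At the other end, the mRNA of MRPL12, which forms part of the stalk that recruits translation factors, had 15 FH-DHX36-E335A reads in 1 cluster and no FH-DHX36 read, at an abundance of 535. This gave an NXPM of 0.0032. MRPL23 (0.0309) and MRPL41 (0.0391) followed. MRPL51 and MRPL12 were thus of near equal abundance (553 and 535), and had 6003 and 15 FH-DHX36-E335A reads. Another gene overlaps MRPL12 on the same strand in the annotation, and how the authors assigned reads there was not tested.

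Clusters of the members were spread over the CDS and the 3'UTR. With FH-DHX36-E335A, 290 of the 421 clusters lay in exonic regions of mRNA, of which 10 were in the 5'UTR (3.45%), 138 in the CDS (47.6%, 95% Wilson interval from 41.9% to 53.3%) and 142 in the 3'UTR (49.0%). The CDS share over all genes was 35.7%. With FH-DHX36, 34 of 76 exonic clusters were in the CDS (44.7%, 34.1% to 55.9%), compared with 38.3% over all genes, an interval that includes the all-gene share. Counted by crosslinked reads, the CDS share of members was 39.8% in the PAR-CLIP of the mutant and 45.3% with FH-DHX36, and that of all genes was 22.9% and 38.0%. By clusters it was 36.8% and 47.5% for cytosolic ribosomal proteins, and 54.4% and 68.6% for the respiratory chain and ATP synthase. By reads the values were 41.4% and 42.1%, and 25.4% and 35.7%. A CDS share of clusters above that of all genes was thus not particular to the mitochondrial ribosome.

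Region lengths were then considered, as these mRNAs have short 3'UTRs (median 465 nucleotides against 1075). The CDS made up 36.9% of the canonical mRNA length of the members with an exonic FH-DHX36-E335A cluster, so that the observed CDS share of clusters was 1.29 times that expected by length, while over all genes it was 0.840 times. For FH-DHX36 the ratio was also 1.29, against 0.898 over all genes. The FH-DHX36 share expected by length, 34.6%, lay within the interval of the observed share (34.1% to 55.9%). A single gene weighed on these ratios, because the canonical transcript of MRPL42 has a 3'UTR of 14993 nucleotides. Without MRPL42 the ratios were 1.19 and 1.09. With the longest transcript of each gene in place of the canonical one they were 1.51 and 1.59. Counted by crosslinked reads on canonical transcripts, the ratio was 1.08 for FH-DHX36-E335A and 1.31 for FH-DHX36. Over all genes it was 0.538 and 0.891 by reads. The lengths come from a later annotation than the authors' regions.

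A further set of clusters had another annotation than 5'UTR, CDS, 3'UTR or intron. The classes of the annotation pipeline include clusters at start and stop codons, in non-coding transcripts and outside annotated genes, which the table does not list apart. Among members these were 97 of 421 FH-DHX36-E335A clusters (23.0%, 19.3% to 27.3%) and 20 of 105 FH-DHX36 clusters (12.7% to 27.6%), against 11.8% and 9.27% over all genes. They held 30.4% of the members' FH-DHX36-E335A reads and 25.3% of their FH-DHX36 reads, against 21.4% and 16.7%. This was not particular to the mitochondrial ribosome, as the share of such FH-DHX36-E335A clusters was 26.5% for cytosolic ribosomal proteins and 26.4% for the respiratory chain and ATP synthase. Introns held 8.08% and 8.57% of the members' clusters, against 6.52% and 11.5% over all genes. The intervals given here also take clusters as independent.

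Single members differed strongly in where they were bound. With FH-DHX36-E335A more than 50% of the reads lay in the 3'UTR for 23 of 71 mRNAs, in the CDS for 18, in another annotation for 13, in introns for 5 and in the 5'UTR for none. With FH-DHX36 the counts of 48 were 17 for the 3'UTR, 19 for the CDS, 7 for another annotation, 4 for introns and 1 for the 5'UTR, which was MRPS33 with 85 reads in 1 cluster. Such counts were not made over all bound genes, so that this spread cannot be called particular to the members. The most 5'UTR reads with FH-DHX36-E335A were on MRPS12 (303 of 1553 reads), homolog of the bacterial decoding-centre protein S12, followed by MRPL51 with 170 and MRPL55 with 97. With FH-DHX36, MRPL14 and MRPL4, both large subunit proteins with bacterial homologs, followed MRPS33 with 77 and 71 reads in the 5'UTR. MRPL14 also had 238 FH-DHX36 reads in the CDS, the third most of the members after MRPL24 and MRPL51.

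Intronic reads were concentrated in few members. MRPL32, a large subunit protein that is matured by a protease of the inner membrane, had 543 of its 757 FH-DHX36-E335A reads and all of its 151 FH-DHX36 reads in 1 intronic cluster each. MRPL43 had 401 of 580 FH-DHX36-E335A reads in 3 intronic clusters. MRPS11, a small subunit protein with a bacterial homolog, had 1 FH-DHX36-E335A cluster, which was intronic and held 150 reads, and 71 intronic reads of 126 with FH-DHX36. MRPS26, a mitochondria-specific small subunit protein, had 689 of 1240 FH-DHX36-E335A reads and 394 of 420 FH-DHX36 reads in other annotations.

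**Figure D3:**
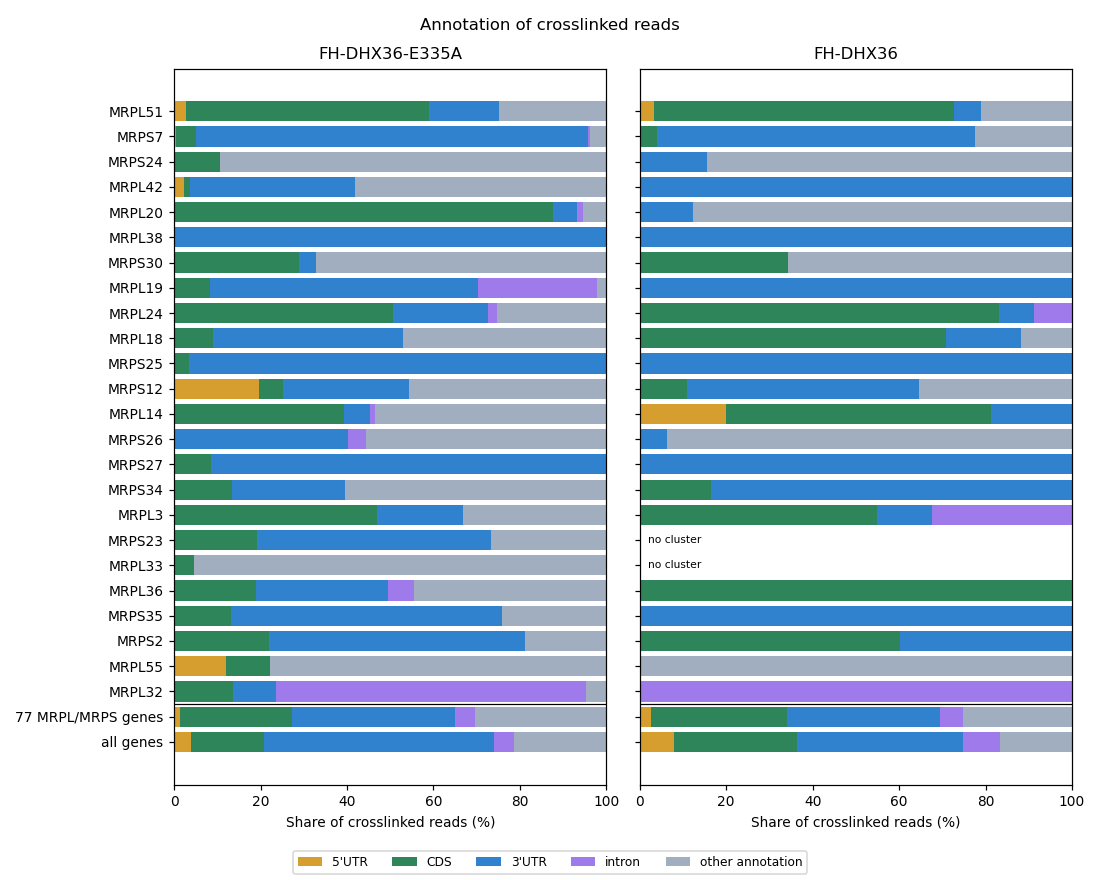
Share of crosslinked reads in the 5'UTR, CDS, 3'UTR, intron and other annotations (percent of the gene's reads) for the 24 members with the most FH-DHX36-E335A reads, and below the line for the 77 members and for all genes, with FH-DHX36-E335A on the left and FH-DHX36 on the right. MRPL38 and MRPS25 are bound almost wholly in the 3'UTR, MRPL20 has 2150 of 2450 FH-DHX36-E335A reads in the CDS, and MRPS24 is mostly of another annotation in both. MRPS23 and MRPL33 had no FH-DHX36 cluster.

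Reads were compared between the PAR-CLIPs as shares of each total. For the 48 members with clusters in both, the median log2 ratio of FH-DHX36-E335A over FH-DHX36 read shares was 0.34, with quartiles of -0.33 and 1.20, and it was 0.12 over all 5669 genes with clusters in both. A read share over 2-fold higher with FH-DHX36-E335A was found for 15 of 48 members (31.3%), near the 28.6% of all genes. One over 2-fold higher with FH-DHX36 was found for 6 of 48 (12.5%), below the 24.8% of all genes. No replicate values stand behind these ratios, so that none of them can be set against an error.

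Among members with at least 20 reads in both, the largest shift towards FH-DHX36 was that of MRPL23, homolog of a bacterial protein at the exit of the polypeptide tunnel. It had 170 FH-DHX36 reads and 85 FH-DHX36-E335A reads, a log2 ratio of -3.02 or an 8.10-fold higher share with FH-DHX36. Of the FH-DHX36 reads 133 were in a cluster of another annotation, while all FH-DHX36-E335A reads were in the CDS. MRPL27, near the peptidyl transferase centre in bacterial ribosomes, had 196 and 197 reads (log2 ratio -2.01). The FH-DHX36 reads of MRPL27 were mainly in the 3'UTR (143 reads in 1 cluster), where FH-DHX36-E335A had no cluster. MRPS11 (126 and 150 reads) had a ratio of -1.77, and MRPL11, of the stalk base, had a ratio of -1.45 from 147 and 218 reads.

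In the opposite direction, MRPS35, a mitochondria-specific small subunit protein, had 836 reads in 16 clusters with FH-DHX36-E335A and 30 reads in 1 cluster with FH-DHX36, a log2 ratio of 2.78. MRPS30 had 2079 reads in 23 clusters and 114 reads in 4 clusters (2.17). For MRPL36 the reads were 864 and 57 (1.90), and for MRPL17 they were 339 and 23 (1.86), both homologs of bacterial large subunit proteins. MRPL42 fell outside the limit of 20 reads with its 19 FH-DHX36 reads, and had a ratio of 5.09.

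The ratio rose with the share of A and U in the mRNA. Spearman's rho of the log2 ratio with the AU content of the canonical transcript was 0.580 over the 48 members, and 0.387 over the 5360 genes with clusters in both and a coding transcript. Within the members it was 0.534 for the AU content of the CDS and 0.538 for that of the 3'UTR, and 0.299 for the length of the 3'UTR, which itself went with AU content (rho 0.504). All of these are descriptions across genes that share their libraries. A median AU content of 58.5% was found for the 23 mRNAs bound in the FH-DHX36-E335A PAR-CLIP alone, against 48.6% for the 48 bound by both. Over all genes the medians of these 2 classes were closer, at 54.9% and 52.4%.

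**Figure D4:**
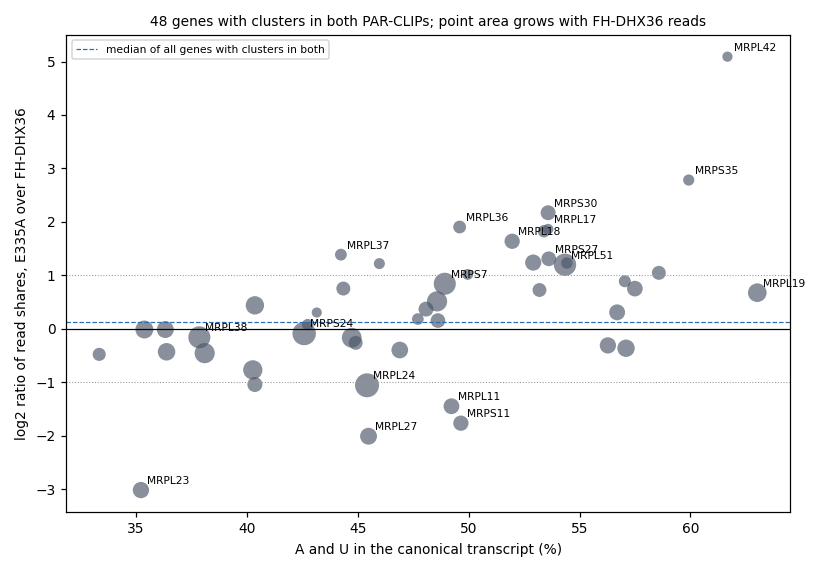
Log2 ratio of read shares (FH-DHX36-E335A over FH-DHX36) against the A and U content of the canonical transcript in percent for the 48 members with clusters in both PAR-CLIPs, with larger points for more FH-DHX36 reads, the median of all genes (0.12) as a dashed line and dotted lines at 2-fold. MRPL23 (-3.02) lies at the AU-poor end and MRPL42 (5.09, 19 FH-DHX36 reads) and MRPS35 (2.78) at the AU-rich end, while MRPL19, also AU-rich, lies at 0.67.

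In the 23 members without an FH-DHX36 cluster the median was 238 FH-DHX36-E335A reads, from 15 to 943, and these mRNAs held 7583 of the members' 58371 reads. The members bound by both had a median of 705.5. At least 400 FH-DHX36-E335A reads were found on 40 members, and 7 of these (17.5%) had no FH-DHX36 cluster, compared with 12.1% of all genes with as many reads. They were MRPS23, MRPL33, MRPL22, MRPL35, MRPL34, MRPL50 and MRPS18C. The first of them, MRPS23, had 943 FH-DHX36-E335A reads in 7 clusters, which would be 233 reads at the FH-DHX36 total. MRPL33 had 865 reads in 3 clusters and MRPL22 had 733 in 6 clusters, corresponding to 214 and 181 reads. The median was 126.5 FH-DHX36 reads on members that were bound by FH-DHX36. The scaled values are gene totals spread over several clusters, while clusters are called by site. Whether depth explains the missing clusters was not tested.

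The S18 family shows how 3 paralogous genes can differ. Human mitochondria have 3 proteins related to bacterial S18, and MRPS18C had 463 FH-DHX36-E335A reads in 3 clusters and no FH-DHX36 cluster. MRPS18A had 141 reads in 4 clusters and 33 reads in 1 cluster. MRPS18B had no cluster in either.

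No cluster of either protein was listed for 6 members, namely MRPL30, MRPL45, MRPL57, MRPS18B, MRPS21 and MRPS36. MRPL45 lies at the exit of the polypeptide tunnel and MRPS21 has a bacterial homolog, while the protein of MRPS36 is now known as a component of the oxoglutarate dehydrogenase complex. The abundance of these mRNAs cannot be recovered from the table. They shared a property that the selection did not use, as parts of their sequence occur more than once in the genome. In the 6 mRNAs, between 18.2% (MRPS18B) and 39.9% (MRPS21) of all 25-base stretches were found at 2 or more places of GRCh37, with a median of 29.6%. The median over the 71 bound members was 2.15%, with a range from 0 to 54.6%. All 6 have pseudogenes named after them in the annotation (median 3.5), compared with 30 of the 71 bound members. The groups overlapped, since 12 bound members were above the lowest of the 6, among them MRPS10 (54.6%, 363 FH-DHX36-E335A reads), MRPS17 (49.3%, 549 reads) and MRPL36 (47.6%, 864 reads). Whether reads that map to several places were lost from these mRNAs was not tested. The table also lists 3 pseudogenes of the family, all without a crosslinked read.

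**Figure D5:**
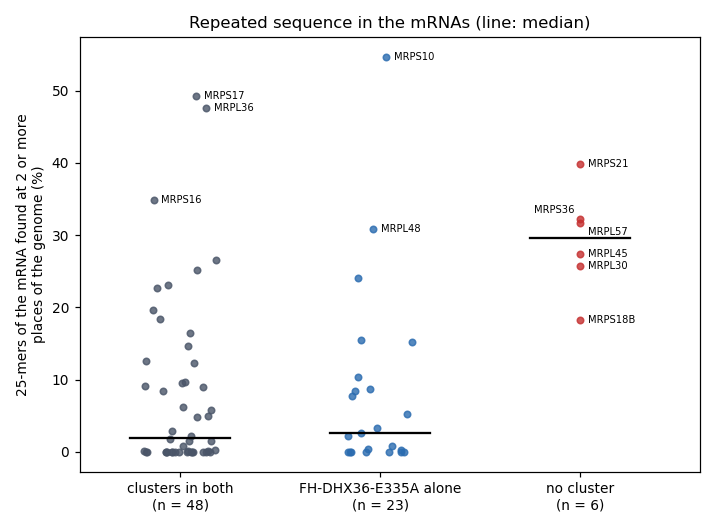
Percent of the 25-base stretches of each canonical mRNA that occur at 2 or more places of GRCh37, for the 48 members with clusters in both PAR-CLIPs, the 23 with clusters in FH-DHX36-E335A alone and the 6 with none (line: median of the class). The 6 mRNAs without a cluster lie from 18.2% to 39.9%, and most bound members lie below them, with MRPS10, MRPS17 and MRPL36 above.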

How the data were processed

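PAR-CLIP values of both cell lines (2 biological replicates each, merged by the authors) were used. The authors mapped reads to hg19 and called clusters with PARalyzer in PARpipe, using GENCODE v19, with demultiplexing by bcl2fastq 2.17.1 per the labels. Crosslinked reads were deposited as counts, clusters as other whole numbers, and NXPM was deposited by the authors as a score (reads scaled to the PAR-CLIP total, over RNA abundance plus 0.001). No column belonged to another sample. Abundance was recovered from NXPM and reads by inverting this score. The abundances recovered from both PAR-CLIPs were the same for members, to within 3.6e-06. A run on simulated data returned its inputs by construction, so that it checked the arithmetic alone and not the form of the score.

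Symbols were matched to GENCODE release 44 on GRCh37, which is hg19 with a later annotation, and 17933 genes had a coding transcript. Lengths, composition and G runs are those of the canonical transcript, with the stop codon counted in the CDS, and all 77 member mRNAs equalled the genome sequence of their exons. Among the respiratory chain genes too few were matched, and no length was used for them. Same-strand overlaps with another gene were annotated for 23 members.

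With 1 value per line no p-value was computed. Named members were set by rule: the 5 with most reads and the 5 with highest NXPM in each PAR-CLIP (the latter with clusters in both and an abundance of at least 1), the 3 with most reads per region, the 4 highest and 4 lowest ratios with at least 20 reads in both, the S18 family, and members with no cluster. Other names were chosen after their values were seen. Members and lists were chosen with earlier results of these data known. Python 3.11.15, pandas 2.3.3, numpy 2.4.6, scipy 1.17.1 and matplotlib 3.10.9 were used. Alternatives were other definitions of a bound gene, minimum read numbers, other scalings, transcripts and weights.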

Additional observations from a re-analysis of the deposited data

How the results depend on the processing

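No paired analysis was possible because the table merges the 2 replicates of each line, and no replicate could be left out for the same reason. Of 26 alternative values, 19 stayed within the counting or order-statistic interval of the reported value, or within 1.5 times for a count, and 7 moved. The counting intervals of cluster shares take clusters as independent. Requiring at least 2 clusters lowered the members bound by FH-DHX36 from 48 to 29, which is 37.7% against 12.7% of all genes, and those bound by FH-DHX36-E335A from 71 to 67. Counted by crosslinked reads, the CDS share with FH-DHX36-E335A was 39.8% in place of 47.6%. The other moved values come from settings chosen after seeing the data. The ratio of the members' median NXPM to that of all genes went from 0.134 to 0.358 for FH-DHX36-E335A and from 0.0620 to 0.256 for FH-DHX36 when NXPM was divided by transcript length. The ratio of observed to expected CDS share for FH-DHX36-E335A was 1.51 with the longest transcripts, and 1.19 without MRPL42, which stayed within the interval. Members with many FH-DHX36-E335A reads and no FH-DHX36 cluster numbered 13 of 54 at a minimum of 200 reads (24.1%, against 19.5% of all genes) and 2 of 23 at 800 (8.70%, against 5.67%), in place of 7 of 40. The median log2 ratio was 0.17 for exonic reads and 0.22 when scaled to the median ratio of all genes, and rho with AU content was 0.552 with at least 20 reads in both. FH-DHX36 values rest on 4.05 times fewer reads, so that weak FH-DHX36 binding may not have been detectable.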

Other observations

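Other genes of mitochondrial translation were taken from lists set by function. All 6 mitoribosomal proteins of other names had FH-DHX36-E335A clusters and 5 had FH-DHX36 clusters. In 4 of these 5 the read share was higher with FH-DHX36, as it was in 46.6% of all genes with clusters in both. DAP3, a GTP-binding small subunit protein, had 470 FH-DHX36-E335A reads and 218 FH-DHX36 reads (log2 ratio -0.91), and PTCD3, a pentatricopeptide repeat protein of the small subunit, had 306 and 203 (-1.43). CHCHD1 went the other way, with 658 and 19 reads (3.10).

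Of 12 mitochondrial translation factors, 11 had FH-DHX36-E335A clusters and 7 had FH-DHX36 clusters, with median NXPM of 1.70 and 1.72. TUFM, the elongation factor that brings aminoacyl-tRNA to the mitochondrial ribosome, had 639 and 422 reads (log2 ratio -1.42). C12orf65, a peptide release factor homolog, had 1088 and 68 reads and the highest FH-DHX36-E335A NXPM of the list at 15.3. MTRF1L had no cluster.

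Of 14 assembly factors of the mitochondrial ribosome, 11 and 6 were bound. RBFA, which binds the small subunit during its assembly, had 424 FH-DHX36-E335A reads and 635 FH-DHX36 reads (log2 ratio -2.60), with an NXPM of 8.42 and 51.1. FASTKD2 had an NXPM of 14.7 and 32.9. These FH-DHX36 values are above the 28.4 of MRPL19, the highest among the MRPL and MRPS mRNAs. Each rests on 1 FH-DHX36 cluster, with 115 reads for FASTKD2. The upper quartile of FH-DHX36 NXPM over all bound genes was 24.5.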
